A study of Rattus norvegicus with 64 samples.

Results

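Nos2, the inducible nitric oxide synthase, and 6 further genes that feed on or compete for its substrate arginine were followed in the whole blood of male Sprague-Dawley rats. The genes were Arg1, Arg2, Ass1, Gch1, Slc7a1 and Odc1, and they were taken by symbol. Nos2 carries 2 identifiers in these data, ENSRNOG00000011023 and ENSRNOG00000049980, so the 7 symbols correspond to 8 identifiers out of 17366 listed for every rat, and all 8 passed the filter on low counts. They were chosen by symbol with measured levels of these data already known, in particular the difference between amphetamine (AMPH) in a 22.5 C environment and its saline controls, so that difference is only described.

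Nos2 makes nitric oxide and citrulline from arginine and is known as the enzyme that activated macrophages and neutrophils switch on during inflammation. Gch1 starts the synthesis of tetrahydrobiopterin, a cofactor that Nos2 needs. Slc7a1 carries arginine into cells and Ass1 rebuilds it from citrulline, whereas the arginases Arg1 (cytosolic, abundant in liver) and Arg2 (mitochondrial) split it into urea and ornithine, and Odc1 turns ornithine into the polyamine putrescine.

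The files hold 64 rats of 85 to 90 days in 5 groups, each rat given 4 injections 2 h apart and bled by cardiac puncture 3 h after the last. Saline was given in a 22.5 C environment (the controls, 6 rats), in a cool 16 C environment (5 rats) or in a hot 39 C environment that made the animals hyperthermic (16 rats), and AMPH was given at 16 C (15 rats, labelled normothermic) or at 22.5 C (22 rats, labelled hyperthermic). Globin RNA was depleted from the blood before sequencing. Levels below are DESeq2-normalized counts, which allow a gene to be compared between rats but not with another gene. Rats with over 5000 counts of Mb, the myoglobin gene of heart and skeletal muscle, were left out, which removed 2 controls, 1 rat of saline at 39 C and 2 rats of AMPH at 16 C. The groups compared therefore held 4 controls, 5 rats of saline at 16 C, 15 of saline at 39 C, 13 of AMPH at 16 C and 22 of AMPH at 22.5 C.

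Total counts per rat ran from 19055615 to 40530319. The library names open with 14 codes whose meaning the labels do not give, called project codes here. The controls shared no code with saline at 39 C, saline at 16 C or AMPH at 16 C, so those groups and their codes cannot be told apart except through rats of AMPH at 22.5 C. All 5 rats of saline at 16 C had 1 code, which they shared with 1 rat of saline at 39 C and 1 rat of AMPH at 16 C. Control replicate 19 resembled AMPH rats, and AMPH 22.5 C replicate 17 resembled controls, so some results that rest on them are also given without them. Other results are given only with these rats included. Markers of monocytes, neutrophils, T cells, B cells, red cells and platelets were present in every group, as the label of whole blood requires. Liver transcripts were an exception to that label. The summed level of 5 liver genes (Alb, Apoa1, Apob, Ttr and Serpina1) passed 5000 normalized counts in 2 of the 15 rats of saline at 39 C and in 8 of the 22 of AMPH at 22.5 C, and in no rat kept of the other 3 groups.

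Nos2 was low in most controls and higher in every other group. In the 4 controls (replicates 17, 18, 19 and 21) the normalized count of ENSRNOG00000011023 was 202, 179, 2186 and 756. In the 5 rats of saline at 16 C it was 3609, 5634, 2225, 2810 and 2482. Control replicate 19 thus lay just under the lowest of the cool saline rats, and the other 3 controls were far below them.

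In saline at 39 C the same identifier ran from 1205 through a median of 3370 to 23264, in AMPH at 16 C from 1222 through 4454 to 8907, and in AMPH at 22.5 C from 254 through 4557 to 13239. The 2 highest rats of all were saline 39 C replicates 15 and 16, at 23264 and 16751, and the lowest AMPH rat was replicate 17 at 22.5 C. By median the order was controls, saline at 16 C, saline at 39 C, AMPH at 16 C and AMPH at 22.5 C, and no step between neighbours in that order passed the test.

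ENSRNOG00000049980 gave 61.4, 95.0, 435 and 198 in the controls and 449, 244, 466, 689 and 314 in saline at 16 C. It ran from 437 through 1360 to 8256 in saline at 39 C, from 149 through 1443 to 2241 in AMPH at 16 C and from 0 through 1337 to 2839 in AMPH at 22.5 C. On this identifier the cool saline rats stayed near the highest control, and the medians of the heated rats and of both AMPH groups were higher than any cool saline rat. The single 0 was AMPH 22.5 C replicate 21, whose count on the first identifier was 1560.

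**Figure D1:**
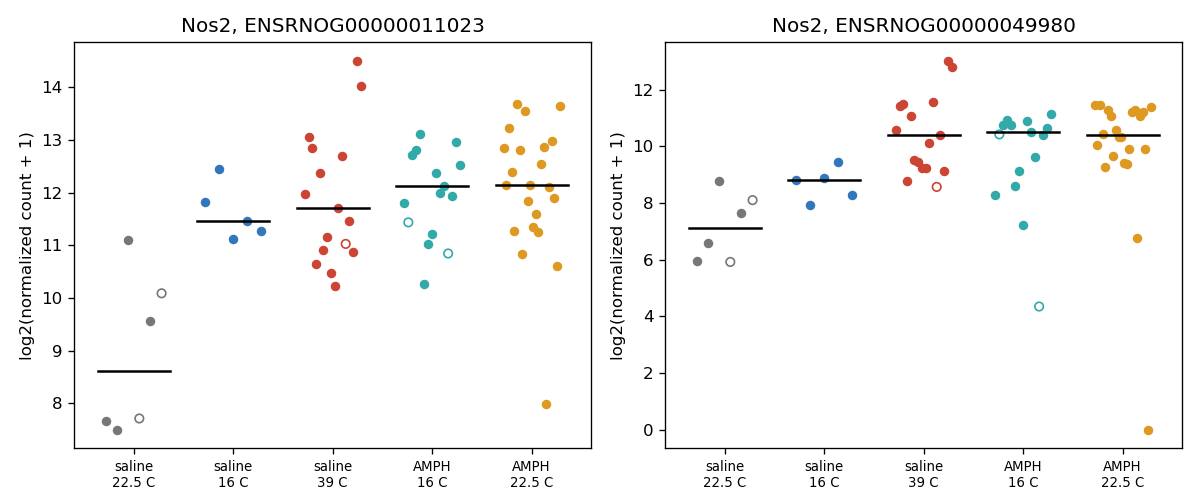
Each point is 1 rat, plotted as log2 of the normalized count plus 1 for the 2 Nos2 identifiers in the 5 groups; open circles are rats with over 5000 Mb counts and bars are medians of the rats kept. The control bar sits below the other 4 on both identifiers, and 2 rats of saline at 39 C stand highest on both.

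The 2 identifiers did not keep 1 ratio across groups. Among the rats kept, ENSRNOG00000049980 took 21.5% to 33.1% of the summed Nos2 level in saline at 39 C and 4.15% to 19.7% in saline at 16 C. These groups did not overlap, but saline 39 C replicate 12, left out for Mb, had 15.3%, within the range of saline at 16 C. The share was 5.91% to 27.4% in AMPH at 16 C, 16.6% to 34.6% in the controls and 0% to 32.7% in AMPH at 22.5 C. Within the project code that holds all cool saline rats, the heated rat (replicate 2) had 24.1% and the AMPH 16 C rat (replicate 14) 16.8%. RSEM divides reads between transcripts that look alike, so a value on either identifier alone is uncertain, and the share is given as a description with no test.

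**Figure D2:**
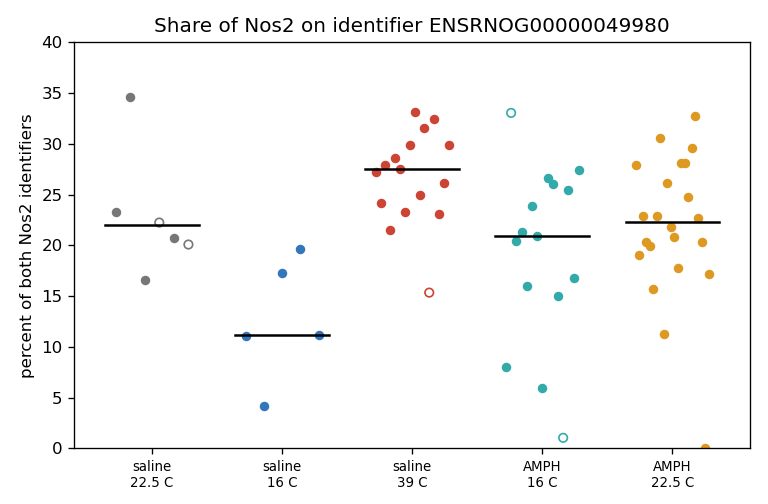
Percent of the summed normalized count of both Nos2 identifiers that falls on ENSRNOG00000049980, 1 point per rat in the 5 groups, with open circles for rats over the Mb limit and bars for medians of the rats kept. The kept rats of saline at 39 C lie at 21.5% or above, and the rats of saline at 16 C at 19.7% or below.

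Whether heat without drug changed these genes is asked by saline at 39 C against the saline controls. Of the 8 identifiers 4 rose and none fell, at an adjusted p under 0.05 and an absolute log2 fold change above 0.58 in edgeR, where 23.8% of the 14000 genes tested were called. Nos2 was higher by 2.77 ± 0.74 (SE) on the log2 scale on ENSRNOG00000011023 (edgeR adjusted p = 0.00577) and by 3.45 ± 0.87 on ENSRNOG00000049980 (edgeR adjusted p = 0.0039). Summed over both identifiers, the difference was 2.93 ± 0.74.

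Ass1 was higher by 2.04 ± 0.75 (edgeR adjusted p = 0.0391) and Odc1 by 1.17 ± 0.33 (edgeR adjusted p = 0.00764). All 15 heated rats exceeded all 4 controls in Odc1 and on the second Nos2 identifier, the latter by a margin of 437 against 435, and 1.76% of all genes lay wholly above the controls in this way. Rats left out for Mb broke both separations. A control left out had 4602 in Odc1, above the lowest heated rat at 3599. Saline 39 C replicate 12 had 378 on the second Nos2 identifier. Arg1 differed by 3.91 ± 1.56 and missed the threshold (edgeR adjusted p = 0.0546). Gch1, Arg2 and Slc7a1 were not called.

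Fitting the project code beside the group left both Nos2 identifiers called, at 2.80 ± 0.80 and 3.84 ± 0.81, when 2.86% of genes were called. The heated rats and the controls share no code, so that fit joins them only through AMPH at 22.5 C. Its values therefore take in the difference from the controls by which the genes were chosen, and are not independent of it. Ass1 fell out at 0.88 ± 0.90 and Odc1 at 1.09 ± 0.42 in that fit, and Arg1 turned to -0.30 ± 1.76. This comparison shares its controls with that of AMPH at 22.5 C, where the genes were chosen. There the log2 differences, given with no test, were 2.74 and 2.93 for Nos2, 2.15 for Ass1, 1.07 for Odc1 and 3.29 for Arg1, the last 0.60 without rats over the liver limit. Without control replicate 19 and AMPH 22.5 C replicate 17 the heated rats differed from the controls by 3.92 and 4.22 on the 2 Nos2 identifiers.

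The cell markers moved in the same comparison. Of the T cell genes 7 of 7 fell, of the platelet genes 6 of 6 rose and of the monocyte genes 4 of 7 rose, beside the 23.8% of all genes called. The summed monocyte level was 5588 to 14889 in the controls and 6560 to 35211 in saline at 39 C, the summed T cell level 7508 to 11146 and 1557 to 7218. Fewer cells of a type and less RNA per cell cannot be told apart in whole blood, and the part of these shifts in the Nos2 difference was not tested.

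Whether AMPH changed these genes when the rats stayed cool is asked by AMPH at 16 C against saline at 16 C. None of the 8 identifiers was called in edgeR, and none of the 14000 genes was. At an unadjusted p under 0.05 there were 2 of the 8 and 1026 genes in all, and DESeq2 called none of the 8 and 68 genes in all. Ass1 had the lowest p of the group, with a difference of 1.85 ± 0.69 (edgeR adjusted p = 0.54).

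Ass1 was 32.7, 67.0, 43.5, 84.7 and 74.1 in the saline rats and ran from 87.2 through 161 to 552 in the AMPH rats. The groups did not overlap, which 0.129% of genes did in this direction, but the margin was 87.2 against 84.7. When only these 2 groups were fitted Ass1 was called (edgeR adjusted p = 0.0438), with 54 of 12396 genes called in all. Nos2 differed by 0.52 ± 0.59 and 1.49 ± 0.70 on its 2 identifiers, Arg1 by 2.56 ± 1.54 and Odc1 by 0.54 ± 0.29, with overlap between the groups in each.

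Whether a cool environment alone changed these genes is asked by saline at 16 C against the controls, and again none of the 8 was called in edgeR, nor was any of the 14000 genes. There were 2 of the 8 and 1463 of all genes at an unadjusted p under 0.05, while DESeq2 called none of the 8 and 111 in all. Nos2 differed by 2.00 ± 0.77 on ENSRNOG00000011023 and by 1.12 ± 0.84 on ENSRNOG00000049980, and Arg2 by 1.43 ± 0.60. On the first Nos2 identifier all 5 cool rats exceeded all 4 controls, at 2225 against 2186, as did 3.74% of genes.

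These values turn on 1 control. Without replicate 19 Nos2 ENSRNOG00000011023 differed by 3.17 ± 0.88 (edgeR adjusted p = 0.0331) and Arg2 by 2.63 ± 0.67 (edgeR adjusted p = 0.018), and both were called, as were 366 of the 14224 genes tested in that fit. All cool saline rats came from 1 project code that holds no control, so cold and code cannot be told apart. The summed level of the 12 neutrophil genes was 358439 to 812896 in saline at 16 C and 33054 to 429812 in the controls, with replicate 19 the highest control, and its part in the Nos2 and Arg2 values was not tested.

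The widest contrast of temperature under saline, 39 C against 16 C, called 5 of the 8 identifiers, against 17.3% of all genes. Arg1, Ass1, Nos2 ENSRNOG00000049980 and Slc7a1 were higher in the heat and Arg2 was lower.

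Arg2 was 288, 196, 176, 216 and 209 in the cool rats and ran from 19.5 through 81.2 to 199 in the heated rats. Only the 2 heated rats at 199 (replicates 13 and 16) entered the range of the cool rats, and the log2 difference was -1.29 ± 0.42 (edgeR adjusted p = 0.0264). Slc7a1 was 121, 118, 69.1, 82.8 and 116 in the cool rats and ran from 52.3 through 169 to 325 in the heated rats, a difference of 0.82 ± 0.27 (edgeR adjusted p = 0.028). All heated rats kept but replicate 13, at 52.3, were above every cool rat in Slc7a1.

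Nos2 differed by 2.33 ± 0.73 on ENSRNOG00000049980 (edgeR adjusted p = 0.0204) but by 0.77 ± 0.59 on ENSRNOG00000011023 (edgeR adjusted p = 0.36). With both identifiers summed the difference was 1.06 ± 0.59 (edgeR adjusted p = 0.194), so the call on the second identifier goes with the change in share described above. It was also lost without saline 16 C replicate 2 (edgeR adjusted p = 0.0587) or replicate 5 (edgeR adjusted p = 0.0543). Odc1, at 2300, 5277, 4384, 3747 and 3444 in the cool rats, differed by 0.70 ± 0.29 and was not called (edgeR adjusted p = 0.0721).

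Arg1 and Ass1 had the widest spread between heated rats. Arg1 was 5.28, 0, 1.11, 0.941 and 1.92 in the cool rats, which is a handful of reads at most, and ran from 0 through 8.40 to 808 in the heated rats. Replicates 2, 9 and 16 stood out at 808, 291 and 110, and the other 12 heated rats were at or below 25.9. The fitted difference of 5.46 ± 1.64 (edgeR adjusted p = 0.016) is set against cool rats with almost no counts, so its size is uncertain.

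Ass1 ran from 15.6 through 161 to 1434 in the heated rats, with the same replicates 2, 9 and 16 highest at 1434, 1034 and 671. The difference from the cool rats was 2.32 ± 0.70 (edgeR adjusted p = 0.0162). With the project code in the fit Arg1, Ass1 and Nos2 ENSRNOG00000049980 remained called, at 7.24 ± 1.54, 3.34 ± 0.85 and 2.27 ± 0.73, with 8.66% of genes called, whereas Arg2 (-1.44 ± 0.64) and Slc7a1 (0.51 ± 0.35) did not. The only heated rat that shares the code of the cool rats is replicate 2, the one with the highest Arg1.

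**Figure D3:**
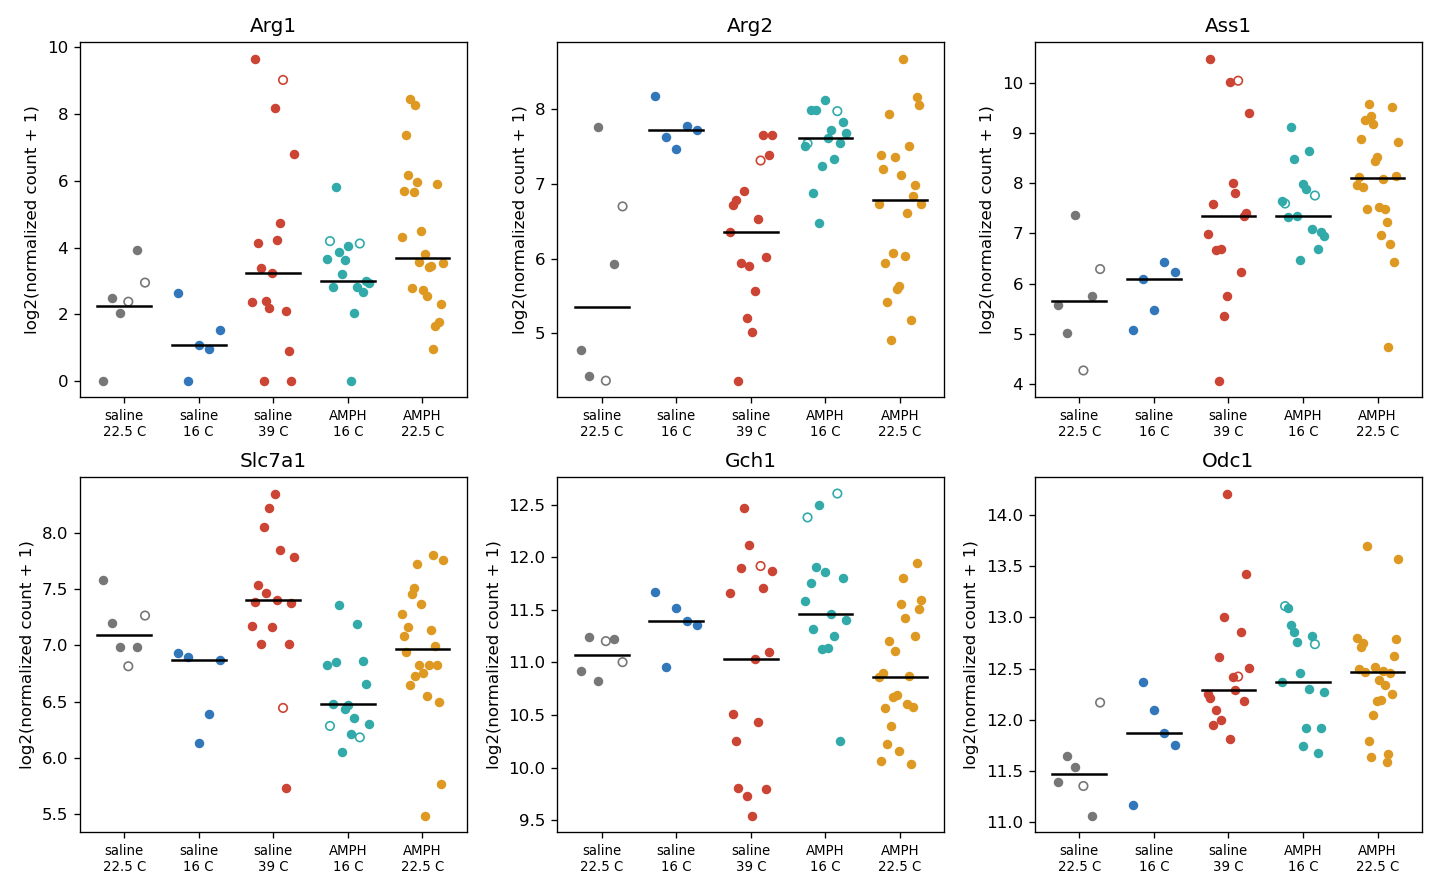
Each point is 1 rat, plotted as log2 of the normalized count plus 1 for Arg1, Arg2, Ass1, Slc7a1, Gch1 and Odc1 in the 5 groups; open circles are rats over the Mb limit and bars are medians of the rats kept, and the axes do not start at 0. Arg2 is high in both 16 C groups, Arg1 and Ass1 scatter widely in saline at 39 C and AMPH at 22.5 C, and every kept rat of saline at 39 C lies above the controls kept in Odc1.

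Arg1 was high in rats with liver transcripts. Saline 39 C replicates 2 and 9 had summed liver levels of 125134 and 114834, against 12.4 to 1792 in the other 13 heated rats, 12.2 to 27.4 in saline at 16 C and 13.5 to 1624 in the controls. Of the 5 liver genes 5 were higher in saline at 39 C than at 16 C, beside the 17.3% of all genes called, and at 16 C Apob was at 0 in all 5 rats. Saline 39 C replicate 12, left out for Mb, had a liver level of 141141 with Arg1 at 518 and Ass1 at 1055.

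Without the rats over the liver limit Arg1 was called between saline at 39 C and at 16 C, at 2.97 ± 1.02 (edgeR adjusted p = 0.0372). Ass1 at 1.44 ± 0.55 did not pass (edgeR adjusted p = 0.0599), with 15.9% of genes called. The 13 heated rats left had liver levels of 12.4 to 1792, against 12.2 to 27.4 in the cool rats, so this limit does not remove liver RNA. Their Arg1 ran from 0 through 4.24 to 110, against 0 through 1.11 to 5.28 in the cool rats. Against the controls neither Arg1 nor Ass1 passed without the rats over the limit. Ass1 then differed by 1.17 ± 0.59 (edgeR adjusted p = 0.13) and Arg1 by 1.43 ± 0.94. Both Nos2 identifiers were called as before, at 2.82 ± 0.76 and 3.53 ± 0.92, with 24.6% of genes called. Saline 39 C replicate 16, with Arg1 at 110 and Ass1 at 671, had a liver level of only 719.

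In AMPH at 22.5 C the 8 rats over the liver limit had Arg1 from 49.9 to 347 and the other 14 from 0.948 to 21.8, with no overlap. Ass1 was 241 to 763 in the former and 25.6 to 450 in the latter. Across all 64 rats Spearman's rho with the summed liver level was 0.84 for Arg1 and 0.65 for Ass1, and over the 53 rats under the limit 0.72 and 0.42. The rats share groups and project codes, so these correlations are descriptions only. How liver RNA came to be in these samples was not tested.

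**Figure D4:**
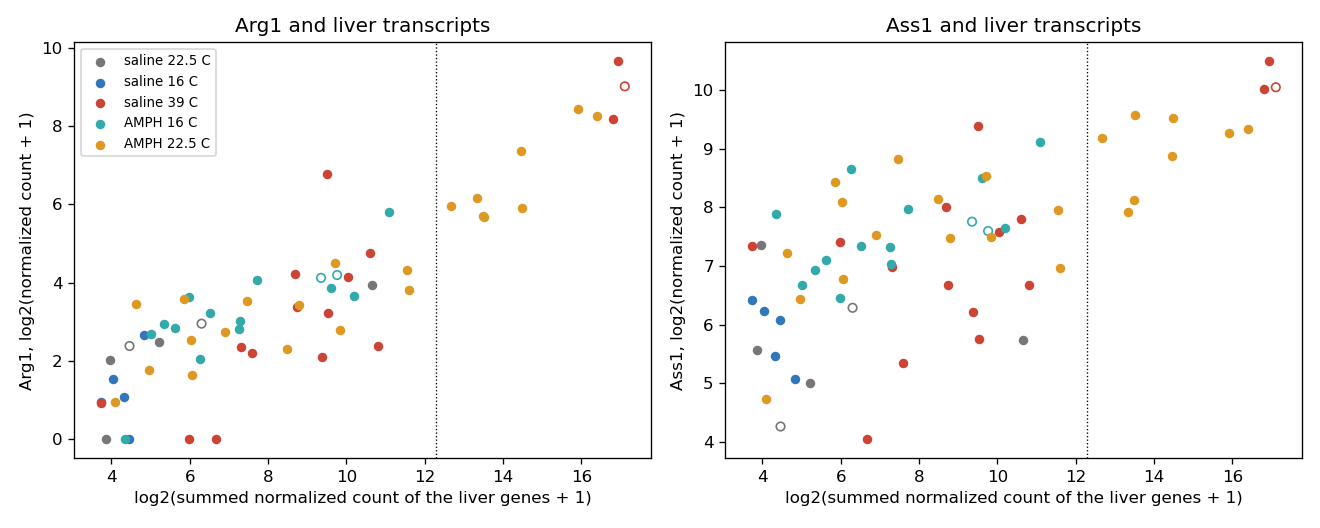
Arg1 (left) and Ass1 (right) against the summed level of 5 liver genes, 1 point per rat, all on log2 scales of the normalized count plus 1, coloured by group with open circles for rats over the Mb limit; the dotted line marks a summed level of 5000. To the right of the line lie only rats of saline at 39 C and AMPH at 22.5 C, and Arg1 is high in all of them.

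AMPH at 16 C and saline at 39 C share 5 project codes, so they were compared with the code in the fit. Of the 8 identifiers only Arg2 was called, against 10% of genes. It was 1.08 ± 0.37 higher in AMPH at 16 C (edgeR adjusted p = 0.041), where it ran from 88.2 through 194 to 277, and it was higher in all 5 shared codes, by 0.24 to 3.62 on the log2 scale. The call did not hold without the rats over the liver limit (1.10 ± 0.43, edgeR adjusted p = 0.0975, with 7.74% of genes called).

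Slc7a1 was -0.54 ± 0.21 in the same comparison and Gch1 0.57 ± 0.30, and neither passed (edgeR adjusted p = 0.0697 and 0.211). Nos2 ENSRNOG00000049980 was -0.78 ± 0.43 (edgeR adjusted p = 0.241), lower in 4 of the 5 shared codes. Fitted by group alone, 3 identifiers passed, namely Arg2 at 1.10, Slc7a1 at -0.85 and Arg1 at -2.90, with 21.2% of genes called. Arg1 was 0.20 ± 1.01 with the code in the fit and higher in AMPH at 16 C in 4 of the 5 shared codes, so its direction depends on that term.

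Within AMPH, 22.5 C against 16 C called none of the 8 identifiers in edgeR, against 7.05% of genes. At an unadjusted p under 0.05 there were 2 of the 8, and 3405 of the 14000 genes. The largest values were 1.75 ± 0.91 for Arg1, -0.84 ± 0.35 for Arg2 and -0.76 ± 0.29 for Gch1. Arg1 was higher at 22.5 C and Arg2 lower in all 5 codes that hold both groups. Gch1 ran from 1218 through 2822 to 5792 at 16 C and from 1049 through 1864 to 3935 at 22.5 C. DESeq2 called Gch1 (-0.78, DESeq2 adjusted p = 0.0463), with 1125 of the 14000 genes called in all. Without the rats over the liver limit the Arg1 difference was 0.0061 ± 0.49.

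AMPH at 22.5 C against saline at 39 C, the 2 groups of hot animals, likewise called none of the 8 in edgeR, against 1.59% of genes. At an unadjusted p under 0.05 there were 2 of the 8, and 2708 of the 14000 genes. DESeq2 called none of the 8 as well. The largest values were 1.95 ± 0.96 for Arg1, 0.81 ± 0.51 for Ass1 and -0.61 ± 0.40 for Nos2 ENSRNOG00000049980, and Slc7a1 was -0.39 ± 0.19. With rats over the liver limit removed 0.00735% of genes were called. A difference that misses the threshold does not show that the groups are alike.

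Arg2 moved with the summed neutrophil level, most of which came from S100a8 and S100a9. In saline at 16 C their medians were 171737 and 327127, against 559956 for the sum. The rho of Arg2 with that sum was 0.82 over 64 rats. Of 8050 candidate genes the most like Arg2 was S100a9, a calcium-binding protein of neutrophils and monocytes (rho = 0.85), which is itself part of the sum. Max (0.83) and a pair of Ceacam10 identifiers (0.83 each) followed. S100a9 ran from 214874 through 327127 to 476827 in saline at 16 C and from 36409 through 98890 to 199532 in saline at 39 C. Of 11 neutrophil identifiers tested, 3 were lower in saline at 39 C than at 16 C and 1 was higher, against 923 of 14000 genes called lower and 1501 higher. The 3 lower were S100a8, S100a9 and Camp, and the 1 higher was Fpr1. The list median log2 difference was -0.73, against 0.08 over all genes. The part of this shift in the Arg2 difference was not tested.

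Nos2 ENSRNOG00000011023 was most like Hk2, a hexokinase (rho = 0.91), Csf2rb, the shared receptor chain for GM-CSF, IL-3 and IL-5 (0.89), its own second identifier (0.87) and Zc3h12a, an RNase that degrades inflammatory mRNAs (0.87). Its rho with the summed monocyte level was 0.60 and with the neutrophil level 0.31. Within the 16 rats of saline at 39 C these were 0.71 and 0.64, and the liver level gave -0.14. The 2 rats highest in Nos2, replicates 15 and 16, had summed liver levels of 62.1 and 719.

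Arg1 was most like Fabp1 (rho = 0.87), and Ttr (0.85) and Fga (0.84) were also close to it, all known as liver genes. Ass1 was most like Tubb6, a tubulin (0.80), Slc39a8, a zinc transporter (0.77), and Maoa, monoamine oxidase A (0.77), and its rho with the monocyte level was 0.60. Odc1 was most like Pla1a (0.88) and Gmpr (0.88), and its rho with the summed platelet level was 0.76.

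Odc1 ran from 3599 through 5026 to 18896 in saline at 39 C, and the highest rat, replicate 8, also had the highest platelet level of the 64, at 246254. Gch1 was most like Bcas2 (0.93) and Mff (0.91), and Slc7a1 most like Zmiz2 (0.88) and the isoleucyl-tRNA synthetase Iars (0.83). Between the members themselves the highest rho after that of the 2 Nos2 identifiers was that of Arg1 and Ass1 (rho = 0.72), and the lowest that of Arg2 and Slc7a1 (rho = -0.49).

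**Figure D5:**
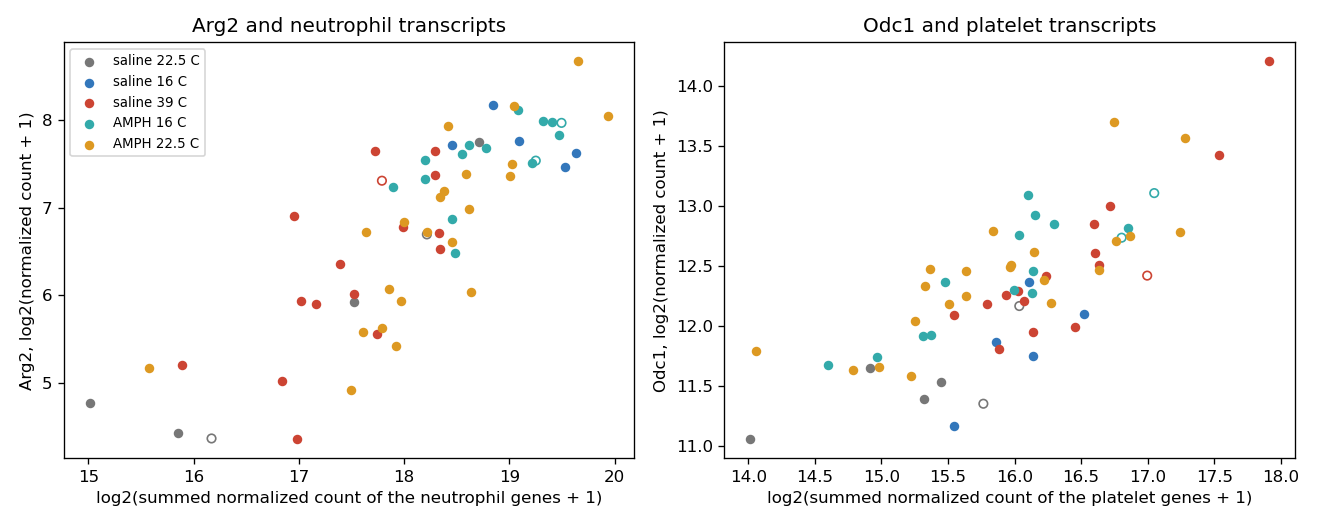
Arg2 against the summed level of 12 neutrophil genes (left) and Odc1 against that of 6 platelet genes (right), 1 point per rat, on log2 scales of the normalized count plus 1, coloured by group with open circles for rats over the Mb limit. Both rise together across rats, and the rats of saline at 39 C lie to the left of those of saline at 16 C in the Arg2 panel.

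Other genes of the pathway were taken from lists drawn up with earlier results known. Of 13 identifiers for nitric oxide and tetrahydrobiopterin synthesis, saline at 39 C against the controls called 3 higher and 1 lower, where 23.8% of all genes were called, with a list median log2 difference of 0.50 against 0.02 over all genes. Hsp90aa1, a chaperone that also binds nitric oxide synthases and is induced by heat, went from a median of 2484 in the controls to 182294, a log2 difference of 6.39. Spr and Gchfr, which complete and restrain tetrahydrobiopterin synthesis, were higher by 1.23 and 1.06, and Qdpr, which recycles it, was lower at -0.75.

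Of the nitric oxide receptor genes 3 of 3 tested rose in the same comparison, with a list median of 1.78. Gucy1a3 and Gucy1b3, the subunits of soluble guanylate cyclase, were higher by 2.01 and 1.68 and the cGMP phosphodiesterase Pde5a by 1.78. Against saline at 16 C, where 17.3% of all genes were called, the same 3 rose by 1.63, 1.08 and 1.37. The platelet list rose beside them against the controls, and 2 of its 6 genes did against saline at 16 C, and its part was not tested.

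Of 8 arginine supply genes, 3 were higher and 1 lower in saline at 39 C than in the controls, against 23.8% of all genes called, and the list median was 1.16. Asl, which completes the path from citrulline to arginine after Ass1, rose by 1.55 from a median of 583 to 1702. The transporter Slc7a2 rose by 3.14 at very low counts, from a median of 3.32 to 9.94, with up to 214 in the heated rats. Whether liver RNA had a part in the Slc7a2 value was not tested. Cps1, a urea cycle gene of liver, was at 0 in all 4 controls and reached 1125 in the heated rats, so no fold is given, and the lysosomal arginine sensor Slc38a9 was lower at -0.73. Asl was also 1.23 higher than in saline at 16 C, and 0.66 lower in AMPH at 16 C than in saline at 39 C.

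Of 12 polyamine genes, 3 were higher and 2 lower in saline at 39 C than in the controls, against 23.8% of all genes called, and the list median was 0.49. Oaz1, the antizyme that restrains Odc1, rose by 1.15, the spermine oxidase Smox by 1.18 and the acetyltransferase Sat1 by 0.93, and Dhps and Sms were lower at -0.72 and -0.58. Azin1, an inhibitor of the antizyme, was lower than in saline at 16 C at -0.79 and was 0.69 higher in AMPH at 16 C than in saline at 39 C.

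Of 12 genes that use arginine otherwise, only Ddah2 was called in saline at 39 C against the controls, where 23.8% of all genes were called. Ddah2, which degrades inhibitors of nitric oxide synthase, was higher by 1.13, and the list median was -0.27. Its relative Ddah1 was lower in saline at 39 C than at 16 C, at -1.62, with 66.0 to 288 in the heated rats and 370 to 682 in the cool rats and no overlap, as for 1.44% of genes. It was 1.39 higher in AMPH at 16 C than in saline at 39 C. Agmat, of the same list, was higher in saline at 39 C than at 16 C by 2.48, from low counts (median 8.32 against 2.00). In that comparison 17.3% of all genes were called.

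Of 12 genes for signals known to induce Nos2, 4 were higher in saline at 39 C than in the controls and none lower, against 1757 of 14000 genes called higher and 1570 lower, and the list median was 0.46. The cytokine Il1b rose by 1.36, the transcription factors Cebpb, Hif1a and Rela by 1.74, 1.41 and 0.59. Against saline at 16 C, Hif1a was higher by 1.21, while Tnf and Nfkbia were lower at -1.43 and -0.85. In the comparisons of AMPH with saline at 16 C and of saline at 16 C with the controls edgeR called none of the 14000 genes. None of these 6 lists could therefore have a gene called there.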

How the data were processed

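Whole blood of 64 rats was depleted of globin RNA and sequenced. The authors deposited RSEM expected counts per gene for each rat, not normalized; the submitters' notes name CASAVA 1.8.2, Bowtie 0.12.9, RSEM 1.2.0 and the rn5 build. Here the expected counts were rounded to whole numbers. Files list different genes (6 lists, 26405 genes in any and 17366 in all), and the 17366 were used. Unlike the study, no outlying value was trimmed here. The 5 rats with over 5000 Mb counts were left out of fits, leaving 59.

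Groups were compared with edgeR 4.0.16 in R 4.3.3 (TMM normalization, quasi-likelihood test, Benjamini-Hochberg over all genes tested) on the 14000 genes that reached 10 counts in 4 or more rats. A call needed an adjusted p under 0.05 and an absolute log2 fold change above 0.58. Comparisons between groups with 5 or more shared project codes were fitted with group and code, the others with group alone, and all groups shared 1 estimate of the spread (biological coefficient of variation 0.488, or 0.419 with the code). An SE was derived from the F statistic. DESeq2 1.42.0 gave the normalized counts and, as an alternative, a Wald test. Summaries used Python 3.11.15, numpy 2.4.6, scipy 1.17.1, pandas 2.3.3 and matplotlib 3.10.9. The fitting scripts were tested on simulated data.

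The members and all gene lists were chosen with earlier results of these data known. The genes named are every identifier of the 7 symbols, from each pathway list the called genes of largest change (up to 3 a comparison; further ones named were added after their values were seen), and the genes most like each member by Spearman's rho over 64 rats among the 8050 tested genes whose mean normalized count reached 100. Each rat is a separate animal, and at these depths variation between rats limits precision except for genes of few counts such as Arg1. Among 481 pairs of rats of 1 group the smallest chi-square per gene was 52.4, so no 2 libraries agreed within sampling noise. Gene positions and sequences are not given because the reference tables at hand are of another build. AMPH at 22.5 C against the controls was described without a test. Some genes that meet the naming rule are not reported here.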

Additional observations from a re-analysis of the deposited data

Results flagged for a closer look

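In 1 of the 16 sets of a gene in a group of 4 to 10 rats that were examined, 1 rat stood apart from the rest by Dixon's criterion at 95%. This was Ass1 in control replicate 19, at 164 normalized counts against 31.3 to 52.7 in the other 3 controls kept, where the gap took 0.839 of the range. Chance flags about 1 such set in 20. The same rat also had the highest Nos2, Arg2 and summed neutrophil level of the controls.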

How the results depend on the processing

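Of 127 counts of called members recomputed under an alternative, 109 stayed within 1.5 times the reported count and 18 did not. Saline at 39 C against the controls gave 4 calls and 2 with the project code in the fit. Saline at 39 C against 16 C gave 5, and 3 both with the project code and when only these groups were fitted. AMPH at 16 C against saline at 39 C gave 1, and 3 by group alone, and 0 with all rats kept, with only these groups fitted or without rats over the liver limit. AMPH at 22.5 C against 16 C gave 0, and 1 (Gch1) with DESeq2 or all rats kept and 2 (Arg1 and Arg2) with only these groups fitted. AMPH at 16 C against saline at 16 C gave 0, and 1 (Ass1) with only these groups fitted. Leaving out each saline 22.5 C or 16 C rat in turn gave 3 to 4 calls for saline at 39 C against the controls, 3 to 5 against saline at 16 C (3 without saline 16 C replicate 4 or 5), and 0 to 2 for saline at 16 C against the controls, where the 2 arose without control replicate 19, also with AMPH 22.5 C replicate 17 left out. Over all genes, fits of only the groups compared called 1687 of 12462 for saline at 39 C against 16 C. For AMPH at 16 C against saline at 39 C they called 1208 of 12096. For AMPH at 22.5 C against 16 C they called 1220 of 12091. Leaving out 1 saline rat called 1480 to 3284 genes for saline at 39 C against the controls. It called 1562 to 2441 against saline at 16 C and 0 to 366 for saline at 16 C against the controls. The cause of these changes was not tested.

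Of the values of single members under alternatives, 936 kept their direction and call, 27 lost a call, 14 gained one, 3 untested values moved and 43 changed direction. In 42 of the 43 the value after the change was not called, the exception being Arg1 in AMPH at 16 C against saline at 39 C. By group alone in place of the project code, the latter comparison gave -2.90 for Arg1, -0.47 for Ass1 and -0.24 for Nos2 ENSRNOG00000011023 (called Nos2-1 below). AMPH at 22.5 C then gave -0.62 for Arg1 and -0.029 for Nos2-1 against saline at 39 C, and 0.21 for Nos2-1 against AMPH at 16 C. With the project code, Arg1 was -0.30 for saline at 39 C against the controls and Gch1 -0.088 for AMPH against saline at 16 C. With all rats kept Nos2-1 was -0.020 for AMPH at 16 C against saline at 39 C and 0.040 for AMPH at 22.5 C against 16 C. With only the groups compared, these were -0.25 for Nos2-1 and -0.0030 for Nos2 ENSRNOG00000049980. Without rats over the liver limit, AMPH at 16 C against saline at 39 C gave -0.32 for Nos2-1 and 0.032 for Odc1, AMPH at 22.5 C against 16 C gave -0.037 for Nos2 ENSRNOG00000049980 and -0.042 for Ass1, and AMPH at 22.5 C against saline at 39 C gave -0.55 for Nos2-1, 0.30 for Gch1 and 0.26 for Odc1. With both Nos2 identifiers summed, these 3 comparisons gave -0.16, 0.022 and -0.14. For AMPH at 22.5 C against saline at 39 C, Nos2-1 was -0.032 with DESeq2 size factors in edgeR and with DESeq2, -0.0046 without the 2 rats that resemble another group, and from -0.00496 to 0.0018 over the fits that left out 1 saline rat. Over the same fits Arg2 ran from -0.18 (without control replicate 18) to 1.35 (without replicate 19) for saline at 39 C against the controls, Ass1 from -0.53 to 0.51 (without replicate 19) for saline at 16 C against the controls, and Slc7a1 from -0.14 to 0.037 for AMPH against saline at 16 C. Ass1 was also 0.51 with AMPH 22.5 C replicate 17 left out too. The liver limit and the removal of the 2 rats were chosen after seeing the data.

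The labels number rats within groups, and 59 same-numbered pairs did not deviate together (mean correlation 0.0209, from -0.301 to 0.517). With the replicate number as a block the calls were 0 for saline at 39 C against the controls (Arg1 -0.40, Gch1 -0.061), 0 for AMPH at 16 C against saline at 39 C and 1 for AMPH at 22.5 C against 16 C (Nos2-1 0.25). Over all 14000 genes the block called 0, 1118 and 918 in these comparisons, in that order. The block also gave 0.11 for Slc7a1 in AMPH against saline at 16 C, -0.70 for Nos2 ENSRNOG00000049980 in saline at 16 C against the controls and 0.044 for Gch1 in AMPH at 22.5 C against saline at 39 C.

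Small groups (4 controls, 5 cool saline rats), their project codes and liver transcripts limit these comparisons.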
